A study of Homo sapiens with 6 samples.

Results

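Aldehyde dehydrogenases are enzymes that oxidise aldehydes to carboxylic acids, with NAD or NADP as the electron acceptor. The 10 genes described here (ALDH1A1, ALDH1A3, ALDH1B1, ALDH1L1, ALDH1L2, ALDH2, ALDH3A1, ALDH3A2, ALDH4A1 and ALDH7A1) were taken by gene symbol from the deposited table of 46427 human genes, and all 10 were found. The other 9 aldehyde dehydrogenase genes of the table were used for comparison.

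Some members of the family make retinoic acid from retinal, some clear acetaldehyde and the aldehydes left by lipid peroxidation, and others work in folate, proline, lysine and fatty aldehyde metabolism. ALDH1A1 activity is widely used to mark cells with stem-like properties in lung and other carcinomas. ALDH3A1 is abundant in the cornea and in some lung carcinomas.

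The study used small interfering RNA (siRNA) to lower MALAT1, a nuclear long non-coding RNA, in the established non-small cell lung cancer (NSCLC) cell lines H460, H1299 and A549. RNA-seq was done on 6 libraries, 1 of control and 1 of si-MALAT1 cells for every line. The si-MALAT1 cells were transiently transfected with siRNA against MALAT1 using a lipid reagent, and the labels call the controls non-treated. The methods describe both negative-control and si-Control cells and do not say which of these were sequenced, so an effect of transfection itself cannot be told apart from that of the siRNA. The time at which RNA was taken is not given in the sources used here. With 1 culture per line and condition, a difference within a line had no replicate check. The p-values of the paired test below set the change against its spread over lines, an estimate that also borrows from other genes. Those between lines take the control and si-MALAT1 libraries of a line as its repeats. They are judged against what remains after a shared treatment effect, with the same borrowing, not against independent cultures of 1 condition.

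The libraries held 42506818 to 68515992 reads assigned to genes, and the A549 pair was the shallowest. MALAT1 was lower in every si-MALAT1 library, at 452 and 82.5 TPM (a level scaled for transcript length and library size) for H460 control and si-MALAT1, 805 and 110 TPM for H1299, and 305 and 42.2 TPM for A549. The 9 epithelial marker genes included 6 at 1 TPM or more in both libraries of H460, 3 in H1299 and 5 in A549. Among them, the keratin gene KRT18 was present in all 6 libraries at 236 to 2918 TPM. The cadherin gene CDH1 was at 27.8 and 39.4 TPM in A549 and at most 0.0468 TPM in H460 and H1299. Of the 12 marker genes of other cell types (leukocyte, endothelial, fibroblast, liver and erythroid), 2 to 4 per line were at 1 TPM or more in both libraries. The summed level of the 12 was 27.9 to 36.8 TPM in H460, 38.5 to 51.6 in H1299 and 29.5 to 34.2 in A549. CD68, a macrophage marker, gave most of the sum in H1299, at 36.2 and 47.3 TPM, and was at 9.40 to 17.4 TPM in the other lines. ACTA2, a smooth muscle gene, was at 1.70 to 9.29 TPM. The leukocyte gene PTPRC, the T cell gene CD3E and the endothelial gene CDH5 were at 0 TPM in every library.

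The summed level of the family was highest in A549, lower in H460 and lowest in H1299, under both conditions. Per transcript length, the 10 members together reached 6345 TPM in the A549 control and 4862 TPM in A549 si-MALAT1. Their sum was 775 and 700 TPM in the H460 pair and 74.1 and 83.1 TPM in the H1299 pair. The leading member also differed between lines. ALDH1A1 made up 83.5% and 82.1% of the members' summed TPM in A549, ALDH3A1 made up 63.6% and 61.9% in H460, and ALDH3A2 made up 49.9% and 52.0% in H1299. These shares differed by at most a few percentage points between the libraries of a line. In these bulk samples, fewer cells with a transcript and less of it per cell cannot be told apart.

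**Figure D1:**
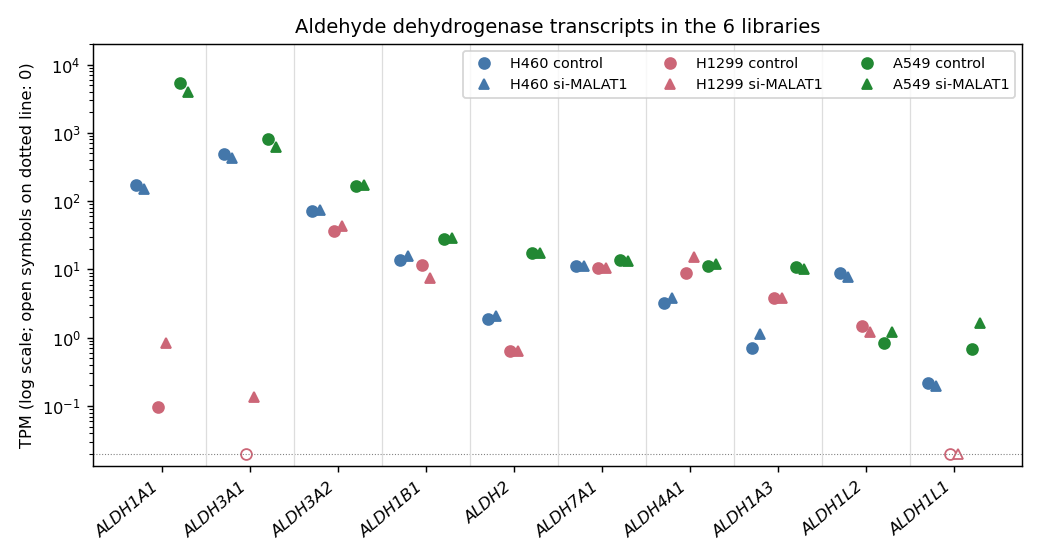
Level of each member in TPM on a log axis, by cell line (colour) and condition (circle, control; triangle, si-MALAT1), with open symbols on the dotted line for libraries at 0. The H1299 libraries lie far below the others for ALDH1A1 and ALDH3A1, while ALDH7A1 lies between 10.5 and 13.6 TPM in all 6 libraries.

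Differences between lines were tested with edgeR's quasi-likelihood test over 21771 genes, with treatment as a covariate and Benjamini-Hochberg adjusted p-values, and a gene was called at an adjusted p under 0.05. A549 exceeded H1299 for 8 of the 10 members, beside 22.8% of all genes tested, and was lower for 0 members, beside 24.4% of genes. H460 exceeded H1299 for 8 members (24.8% of genes) and was lower for 2 members (25.9% of genes). A549 exceeded H460 for 6 members (17.4% of genes) and was lower for 1 member (17.9% of genes). The median log2 fold change of the members was 1.88, 1.61 and 1.17 in these comparisons, whereas the median of all genes was −0.06, −0.04 and −0.01. The comparisons share libraries and are not independent of each other.

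**Figure D2:**
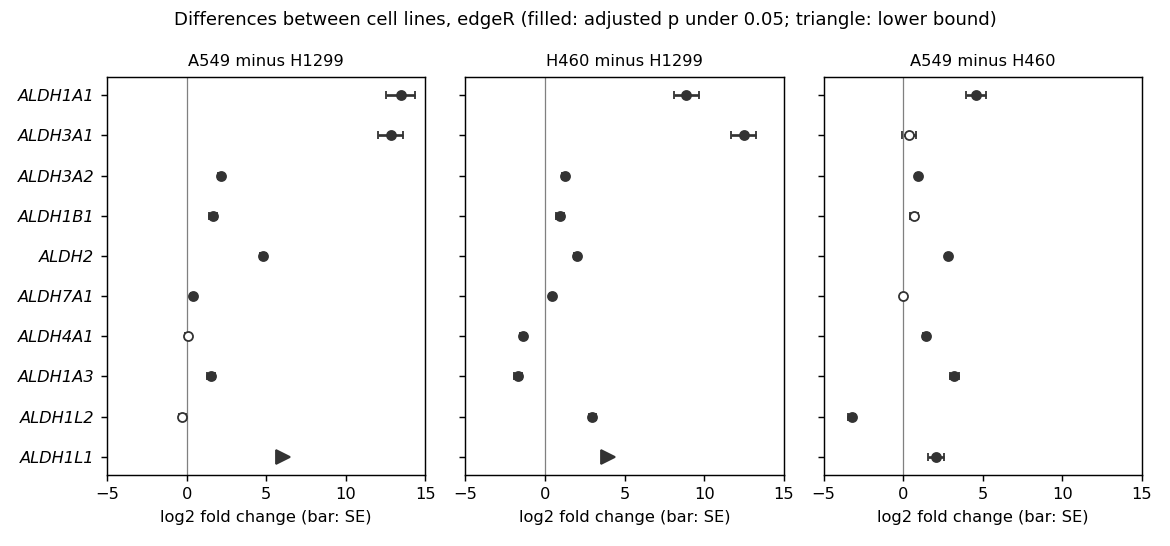
Log2 fold change of each member between cell lines from edgeR, with the standard error as a bar, filled symbols for adjusted p under 0.05, and rightward triangles for lower bounds of ALDH1L1, which had 0 reads in H1299. Of the 10 members, 8 were higher in A549 than in H1299 and 8 were higher in H460 than in H1299.

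Over the lines, the mean log2 CPM (log2 read counts scaled to library size) ranged by 13.9 for ALDH1A1 and 13.7 for ALDH3A1, and by at most 7.32 for the other members. ALDH1A1 (gene ID 216, 13 exons on the minus strand at chr9:72900671-72953053, GRCh38) makes retinoic acid from retinal. It was at 5296 TPM in the A549 control and 3990 TPM in A549 si-MALAT1, the ninth and eleventh most abundant transcripts of those libraries. In H460 it was at 171 and 150 TPM, and in H1299 at 0.0977 and 0.840 TPM. The 3 lines did not overlap. A549 exceeded H460 by 4.58 ± 0.62 on the log2 scale (SE, n = 2 libraries per line, edgeR adjusted p = 0.00295). H460 exceeded H1299 by 8.88 ± 0.79 (edgeR adjusted p = 0.000384). The H1299 values rest on 12 and 89 reads, and A549 minus H1299 was 13.46 with all libraries, 12.39 without the H1299 control library and 15.62 without the H1299 si-MALAT1 library. H460 minus H1299 was 7.85 and 11.08 without those libraries. Without the A549 control library, A549 minus H460 was 3.82.

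ALDH3A1 (gene ID 218, 11 exons on the minus strand at chr17:19737984-19748390) oxidises aromatic and medium-chain aldehydes. It was at 801 and 617 TPM in the A549 control and si-MALAT1 libraries and at 493 and 433 TPM in the H460 pair. The pairs did not overlap, but the lines were not separated by the test, with A549 minus H460 at 0.35 ± 0.44 on the log2 scale (SE, edgeR adjusted p = 0.589). In H1299 it had 0 reads in the control and 18 in the si-MALAT1 library. Relative to H1299, the log2 fold change was 12.83 ± 0.77 for A549 and 12.48 ± 0.77 for H460 (edgeR adjusted p = 0.000122 and 0.000105). The size of both differences rests on those 18 reads, and without the H1299 control library they were 11.67 and 11.34. Without the H1299 si-MALAT1 library the remaining H1299 library had 0 reads, and the fitted values of 18.8 and 18.5 are then no measured fold.

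ALDH1A3 (gene ID 220, 13 exons on the plus strand at chr15:100879831-100916626) also makes retinoic acid, and its lines were in another order. It was at 10.7 and 9.99 TPM in A549, 3.76 and 3.84 TPM in H1299, and 0.696 and 1.13 TPM in H460. A549 exceeded H1299 by 2.83-fold (SE 0.25 on the log2 scale, edgeR adjusted p = 0.00430), and H460 was below H1299, at −1.71 ± 0.26 (edgeR adjusted p = 0.00278). A long non-coding RNA gene on the opposite strand, LOC101927751, shares 1715 exonic bases with ALDH1A3. It had 151 and 239 reads in A549, 238 and 334 in H1299 and 1 and 8 in H460. The library kit kept strand, but whether the counting used strand is not given in the sources used here, so reads of the pair may be mixed.

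ALDH2 and ALDH1B1, enzymes of the mitochondrion, had mean TPM in the same order, A549 above H460 above H1299. This order was not particular to them. ALDH1A1, ALDH1L1, ALDH3A1, ALDH3A2 and ALDH7A1 also had it. For ALDH7A1 the means were 13.5, 11.2 and 10.6 TPM, but A549 minus H460 was −0.03 ± 0.13 on the log2 scale of the fit. ALDH2 (gene ID 217, 13 exons on the plus strand at chr12:111766933-111817532), the main acetaldehyde-clearing enzyme, was at 17.2 and 17.1 TPM in A549, 1.90 and 2.07 TPM in H460 and 0.635 and 0.646 TPM in H1299. For ALDH2 every step in this order passed the test. A549 was over H460 by 2.81 ± 0.15 and H460 over H1299 by 1.99 ± 0.15 on the log2 scale (edgeR adjusted p = 0.000104 and 0.000200).

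ALDH1B1 (gene ID 219, 3 exons on the plus strand at chr9:38392702-38398665), a mitochondrial relative of ALDH2, was at 27.8 and 29.0 TPM in A549, 13.6 and 15.5 TPM in H460 and 11.7 and 7.50 TPM in H1299. A549 exceeded H1299 by 1.63 ± 0.25 (edgeR adjusted p = 0.00344) and H460 exceeded H1299 by 0.97 ± 0.25 (adjusted p = 0.0204). The second of these calls was lost without the H460 si-MALAT1 library (edgeR adjusted p = 0.0905) and without the H1299 si-MALAT1 library (0.0566). A549 minus H460 was 0.66 ± 0.25 (edgeR adjusted p = 0.0866) and passed without the H460 si-MALAT1 (0.0430), the H1299 control (0.0120) or the H1299 si-MALAT1 library (0.0116).

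ALDH4A1 (gene ID 8659, 16 exons on the minus strand at chr1:18871430-18902799) carries out a step of proline breakdown that yields glutamate. Its level was 11.1 and 12.0 TPM in A549, 8.93 and 15.2 TPM in H1299 and 3.18 and 3.81 TPM in H460. H460 was the low line, at −1.38 ± 0.18 relative to H1299 (edgeR adjusted p = 0.00153), while A549 and H1299 overlapped and differed by 0.06 ± 0.18 (adjusted p = 0.827).

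ALDH7A1 (gene ID 501, 18 exons on the minus strand at chr5:126541841-126595219) acts in lysine breakdown. It was the steadiest member, at 13.6 and 13.4 TPM in A549, 11.3 and 11.1 TPM in H460 and 10.6 and 10.5 TPM in H1299. The difference from H1299 was 0.41 ± 0.13 in A549 and 0.44 ± 0.13 in H460 on the log2 scale (edgeR adjusted p = 0.0409 and 0.0308). These calls were not stable. For A549 the adjusted p was 0.0510 without the H460 control library, 0.0704 and 0.153 without the H1299 control and si-MALAT1 libraries, and 0.238 and 0.231 without those of A549. For H460 it was 0.0655 and 0.163 without the H460 control and si-MALAT1 libraries, 0.0545 and 0.121 without those of H1299, and 0.0902 and 0.0918 without those of A549. The pseudogene ALDH7A1P1 had 2 to 46 reads per library beside at least 2259 reads of ALDH7A1.

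The folate enzymes ALDH1L1 and ALDH1L2 both convert 10-formyltetrahydrofolate to tetrahydrofolate and carbon dioxide, in the cytosol and the mitochondrion. ALDH1L2 (gene ID 160428, 27 exons on the minus strand at chr12:105019784-105084609) was highest in H460, at 8.83 and 7.77 TPM, and was at 1.49 and 1.20 TPM in H1299 and 0.824 and 1.23 TPM in A549. H460 exceeded H1299 by 2.98 ± 0.22 (edgeR adjusted p = 0.000189), and A549 was below H460, at −3.25 ± 0.22 (adjusted p = 0.000247). The H1299 and A549 pairs overlapped (−0.28 ± 0.21, edgeR adjusted p = 0.327).

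ALDH1L1 (gene ID 10840, 27 exons on the minus strand at chr3:126103561-126197758) was low in every line. It had 79 and 194 reads in A549, 41 and 38 in H460 and 0 in both H1299 libraries. Against a limit of 3 reads per H1299 library, A549 was at least 67.5-fold higher and H460 at least 15.2-fold higher. These bounds leave out counting error of the A549 and H460 reads. A549 exceeded H460 by 2.04 ± 0.52 on the log2 scale (edgeR adjusted p = 0.0343). This call was lost without the H460 si-MALAT1 library (1.45, adjusted p = 0.164), the A549 control (2.64, adjusted p = 0.0788) or the A549 si-MALAT1 library (1.45, adjusted p = 0.340). Antisense genes ALDH1L1-AS1 and ALDH1L1-AS2 had at most 5 reads in any library.

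ALDH3A2 (gene ID 224, 13 exons on the plus strand at chr17:19648150-19677596), a membrane enzyme that oxidises fatty aldehydes, lies 60388 bases from ALDH3A1. Unlike its neighbour it was abundant in all lines, at 165 and 170 TPM in A549, 71.8 and 74.6 TPM in H460 and 36.9 and 43.2 TPM in H1299. H460 exceeded H1299 by 1.23 ± 0.13 (edgeR adjusted p = 0.000744) and A549 exceeded H460 by 0.90 ± 0.13 (adjusted p = 0.00377). Without the A549 control library the second difference was 0.86 (edgeR adjusted p = 0.0713).

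As a description, cell line took 89.4% to 99.9% of each member's sum of squares of log2 CPM over the 6 libraries. The median was 97.4% for the members and 88.6% for all genes in the fit, and treatment took a median of 0.464% and 3.13%. Mean log2 CPM ranged over the lines by at least 3 for 6 of the 10 members and for 27.5% of all genes.

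RefSeq promoter windows (GRCh38.p14, 250 bases before to 50 after the start) matched 7 of the 10 members. ALDH2, ALDH3A1 and ALDH1L2 had no matched window and were not searched. The windows of the most and the least variable member are shown because they differ in base composition. Each is written in the direction of transcription, with CpG dinucleotides in capitals. The first lies at chr9:72953004-72953303 and the second at chr5:126595170-126595469, both on the minus strand.
ALDH1A1: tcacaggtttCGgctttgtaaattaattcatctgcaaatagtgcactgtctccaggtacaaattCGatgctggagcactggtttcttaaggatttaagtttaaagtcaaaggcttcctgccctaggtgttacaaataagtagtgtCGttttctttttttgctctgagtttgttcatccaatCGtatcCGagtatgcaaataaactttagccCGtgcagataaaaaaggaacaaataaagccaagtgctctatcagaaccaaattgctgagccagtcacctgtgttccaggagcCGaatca
ALDH7A1: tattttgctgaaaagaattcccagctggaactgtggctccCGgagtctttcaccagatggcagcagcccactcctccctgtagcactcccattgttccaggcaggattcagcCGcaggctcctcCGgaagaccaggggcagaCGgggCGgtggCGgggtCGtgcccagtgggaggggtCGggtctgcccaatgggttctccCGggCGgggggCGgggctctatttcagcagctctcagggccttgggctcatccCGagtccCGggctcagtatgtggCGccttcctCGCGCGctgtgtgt
The ALDH1A1 window had 7 CpG dinucleotides and 40.3% G+C, lower in G+C than all but 11.8% of 35116 windows. The ALDH7A1 window had 17 CpG and 64.3% G+C, against medians of 14 and 58.7% over all windows. ALDH1A3 had the most CpG of the 7 matched members, with 46. The motif CCAAT, searched on both strands, was present once in each of the ALDH1A1, ALDH7A1, ALDH1A3 and ALDH1B1 windows, in 1 of the 2 ALDH3A2 windows and in 34.6% of all windows. It began 74 bases before the ALDH1A1 start, 63 before that of ALDH7A1 and 71 before that of ALDH1A3. In the ALDH3A2 window it was 30 bases before the start, and in that of ALDH1B1 26 before, on the reverse strand. TGACNNNGC, the core of the NRF2-type element, was in 0 windows of the 7 matched members and in 13.3% of all windows. ALDH3A1 was not among those searched. Only the letters in these windows were searched.

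Change with si-MALAT1 was first taken within each line, as the difference in log2(scaled count + 1), with counts scaled by median-ratio size factors and a threshold of 1.5-fold. Genes with 0 reads in any library were left out, which kept 17834 genes and 8 of the 10 members. ALDH1L1 and ALDH3A1 were left out because of H1299. In H460, 1 member was higher by 1.5-fold, beside 9.5% of genes, and 0 were lower, beside 10.3%. In H1299, 2 members were higher (11.7% of genes) and 1 was lower (11.4%). In A549, 0 members were higher (11.5%) and 0 were lower (11.4%).

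The 4 values past 1.5-fold belonged to different genes. ALDH1A1 went from 12 to 89 reads in H1299, a difference of 2.90 with a 95% counting interval of 2.15 to 4.03. Its size depended on the scale, at 2.16 with a pseudocount of 10 and 0.75 on the TPM scale, log2(TPM + 1). In H460 it went from 20848 to 19089 reads (−0.05) and in A549 from 388088 to 325794 reads (−0.40). In H460, ALDH1A3 went from 141 to 237 reads (0.83, interval 0.52 to 1.14), and it was at −0.02 in H1299 and −0.08 in A549. On the log2(TPM + 1) scale the H460 difference was 0.33, under the threshold. There the added 1 weighs on levels of 0.696 and 1.13 TPM. ALDH1B1 went from 2039 to 1144 reads in H1299 (−0.70, interval −0.81 to −0.60), but was at 0.32 in H460 and 0.07 in A549. On the log2(TPM + 1) scale the H1299 difference was −0.58, just under the threshold, for levels of 11.7 and 7.50 TPM with 1 added. ALDH4A1 went from 1611 to 2374 reads in H1299 (0.69, interval 0.60 to 0.78) and was at 0.39 in H460 and 0.14 in A549. The intervals are Clopper-Pearson intervals of the read split and cover counting error only.

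**Figure D3:**
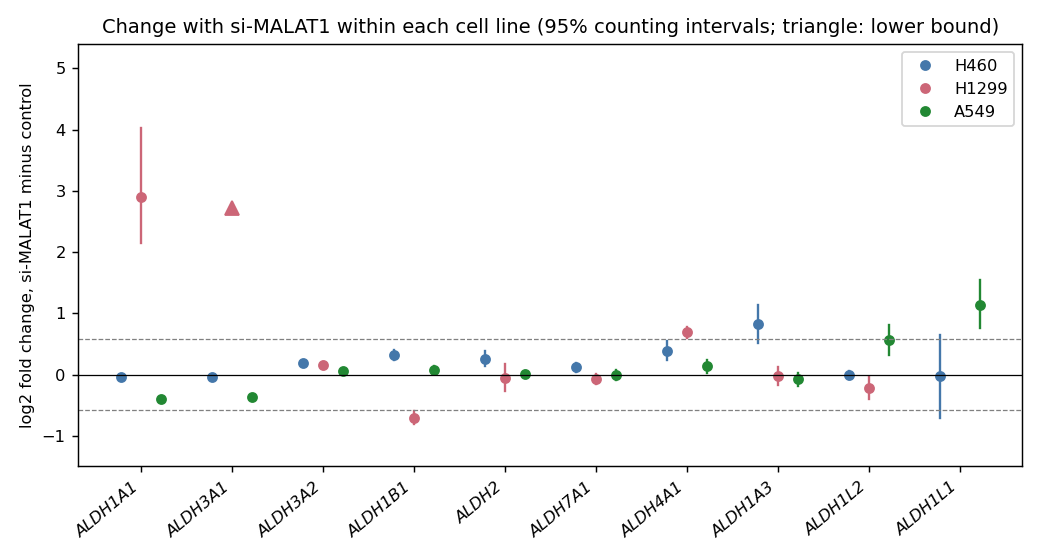
Log2 fold change of each member with si-MALAT1 within each cell line, with 95% counting intervals and dashed lines at 1.5-fold. The triangle is ALDH3A1 in H1299, where the control had 0 reads. It is set against a limit of 3 control reads and leaves out counting error, so it is not the lower end of a counting interval. Most points lie within the dashed lines, and those of ALDH1A1 fall on both sides of 0.

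Of the members left out for zeros, ALDH1L1 went from 79 to 194 reads in A549 (1.14, interval 0.77 to 1.55) and from 41 to 38 in H460 (−0.03, interval −0.70 to 0.64). ALDH3A1 went within A549 from 46949 to 40444 reads (−0.36) and was at −0.04 in H460. In H1299 its 18 si-MALAT1 reads were 6.57-fold above a limit of 3 control reads, without counting error of the 18. The counting interval of this H1299 difference began at 2.27 on the log2 scale. ALDH7A1 and ALDH2 stayed within −0.07 to 0.26 in every line. ALDH3A2 was at 0.19, 0.16 and 0.06 in H460, H1299 and A549. ALDH1L2 was at −0.01, −0.21 and 0.56.

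Over the 3 lines, 2 of the 8 members with reads in every library were higher with si-MALAT1 in all lines (ALDH3A2 and ALDH4A1), beside 21.4% of genes, and 0 were lower in all lines, beside 18.8%. The paired test, with cell line as a block, called 0 of 10 members, beside 0% of genes, and 1 member, ALDH4A1, had an unadjusted p under 0.05. ALDH4A1 was at 0.39 ± 0.14 on the log2 scale (SE, edgeR adjusted p = 0.338). MALAT1 itself was at −2.72 ± 0.16 (edgeR adjusted p = 0.0541), so this fit did not call the targeted gene. Over all 21771 genes the fit called 0, and 2836 had an unadjusted p under 0.05, while DESeq2 called 1333 genes. DESeq2 called 0 of the 9 members it gave an adjusted p, beside 10.2% of its genes, and its smallest was 0.164. ALDH1A1, which was lower in 2 of 3 lines, was at 0.29 ± 0.49 in the paired fit (edgeR adjusted p = 0.876). ALDH3A1 was at 0.01 ± 0.40 (edgeR adjusted p = 0.996). In DESeq2 these genes were at 0.73 and 1.18 (DESeq2 adjusted p = 0.736 and 0.756). The edgeR paired log2 fold changes of the other 9 members ran from −0.11 (ALDH1B1) to 0.57 ± 0.50 (ALDH1L1), and the members' median was 0.10 beside 0.01 for all genes.

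The H1299 reads of ALDH1A1 and ALDH3A1 were set beside those of other genes of the same kind. With at least 3000 reads in both A549 libraries and at most 20 in the H1299 control, 59 genes were found, of which 57 were not members. Of these 57, 20 had more reads in H1299 si-MALAT1 than in its control, 17 had fewer and 20 had equal numbers, with medians of 2 reads in the control and 0 in si-MALAT1. CD24 had 15 and 72 reads in the H1299 control and si-MALAT1 libraries. ALDH1A1, at 89 reads, had the most reads of the 59 in H1299 si-MALAT1. It also had the most reads of the 59 in A549 si-MALAT1, at 325794, where AKR1C3 had 82893. The ALDH1A1 reads in H1299 si-MALAT1 came to 0.0273% of its reads in A549 si-MALAT1, and those in the controls to 0.00309%. The si-MALAT1 share was higher for CD24 (0.165%), ALDH3A1 (0.0445%) and AKR1C3 (0.0290%). It was lower for CA12 (0.0192%), MLPH (0.0241%) and the genes with 0 reads in H1299 si-MALAT1. Whether such reads come from another library of the run was not tested.

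**Figure D4:**
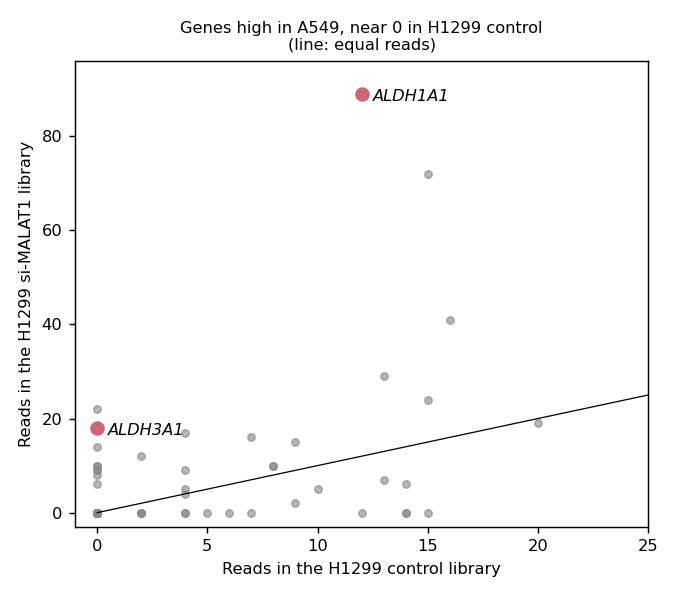
Reads in the 2 H1299 libraries of 59 genes with at least 3000 reads in both A549 libraries and at most 20 in the H1299 control, with a line at equal reads. ALDH1A1, at 12 and 89 reads, is the highest point, and ALDH3A1, at 0 and 18 reads, lies among others.

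Of the 9 other aldehyde dehydrogenases, 8 entered the fit. In A549, 4 were higher and 1 lower than in H1299, beside 22.8% and 24.4% of all genes. H460 also had 4 higher and 1 lower than H1299 (24.8% and 25.9% of genes). Against H460, however, A549 had 1 higher and 3 lower (17.4% and 17.9% of genes), where the members had 6 and 1. ALDH1A2, the third retinal-oxidising enzyme, had 248 and 311 reads in H1299 and 0 in the other 4 libraries, the reverse of ALDH1A1. ALDH3B1 was at 77.6 and 77.9 TPM in A549, 28.3 and 36.5 TPM in H460 and 12.1 and 12.0 TPM in H1299. ALDH18A1, a proline-synthesis enzyme, was higher in H460 than in H1299 by 1.70 ± 0.16 (edgeR adjusted p = 0.000488). With si-MALAT1, ALDH5A1, ALDH6A1 and ALDH9A1 were above their controls in all 3 lines, at paired log2 values of 0.32, 0.31 and 0.40 (edgeR adjusted p = 0.389, 0.357 and 0.281). ALDH16A1 and ALDH18A1 were below their controls in all 3 lines, at −0.12 and −0.23 (edgeR adjusted p = 0.732 and 0.528). These were 3 and 2 of the 6 genes with reads in every library, beside 21.4% and 18.8% of all genes. ALDH8A1, with at most 14 reads, was also below control in every line, and ALDH3B2 had 0 reads throughout.

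Neighbouring pathways were described from gene lists drawn from general knowledge and chosen with earlier results of these data known. Over all genes tested, 22.8% were higher and 24.4% lower in A549 than in H1299. H460 had 24.8% of genes higher and 25.9% lower than H1299. Of 22 NRF2 target genes outside the aldo-keto reductases, 22 were higher in A549 than in H1299 (median log2 difference 3.09) and 21 were higher in H460 (2.61). ABCC2, a conjugate exporter, was at 183 and 160 TPM in A549, 112 and 89.4 in H460 and 0.680 and 0.488 in H1299. The cystine transporter gene SLC7A11 was 5.86 ± 0.45 higher in H460 than in H1299 (edgeR adjusted p = 0.000232), and the fatty acid hydroxylase gene CYP4F11 had 0 reads in H1299 beside 2635 to 9573 in the other lines. With si-MALAT1, TALDO1 and UGDH were below control by more than 1.5-fold in all 3 lines, at a mean of −1.58 ± 0.43 and −1.22 ± 0.45 (SD, n = 3 lines, edgeR adjusted p = 0.0948 and 0.103).

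The alcohol dehydrogenase and aldo-keto reductase list, which holds enzymes that reduce the aldehydes ALDH enzymes oxidise, had 14 genes higher and 0 lower of 18 tested in A549 against H1299, with a median of 2.60. AKR1B10 was at 3329 and 2358 TPM in A549, 900 and 757 in H460 and 0.223 and 0.229 in H1299. AKR1C3 was at 2070 and 1796 TPM in A549, 484 and 553 in H460 and 0.211 and 0.401 in H1299. AKR1B15 had 0 reads in H1299, 736 and 631 in H460 and 6306 and 5092 in A549.

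Of 23 retinoid genes tested, 15 were higher and 4 lower in A549 than in H1299, with a median of 1.46. In H460, 8 were higher and 5 lower than in H1299, with a median of −0.007, beside 24.8% and 25.9% of all genes. CRABP2, a retinoic acid carrier, ran against ALDH1A1, with 725 and 517 reads in H1299, 70 and 76 in H460 and 0 in A549. BCO1, which cleaves carotene to retinal, had 390 and 578 reads in A549 and 0 elsewhere. RARRES1 had 81 and 201 reads in A549 and at most 3 elsewhere.

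Around the folate members, 6 of 25 genes tested were higher and 3 lower in A549 than in H1299 (median 0.15). The shares of all genes were 22.8% and 24.4%. In H460, 9 folate genes were higher and 6 lower than in H1299 (median 0.23), beside 24.8% and 25.9% of all genes. GLDC, of the glycine cleavage system, was lower in H460 than in H1299, at −3.95 ± 0.16 (edgeR adjusted p = 2.96e-05). FTCD had 1174 and 999 reads in H1299, 28 and 18 in H460 and 0 in A549, and SARDH had 38 and 56 reads in H1299 and at most 15 elsewhere. Around ALDH4A1 and ALDH7A1, 8 of 17 genes were higher and 1 lower in A549 than in H1299 (median 0.39). PRODH, the enzyme before ALDH4A1 in proline breakdown, had 81 and 198 reads in A549, 0 and 23 in H460 and 0 in H1299, while PRODH2 had reads in A549 alone (893 and 1401) and BHMT in H1299 alone (33 and 14). Around ALDH3A2, 15 of 20 genes were higher and 1 lower (median 0.79). CYP4F3 had 0 reads in H1299, 175 and 146 in H460 and 2295 and 2996 in A549, and CYP4F12 had 375 and 354 in A549 and at most 8 elsewhere. SGPP1, a sphingosine-1-phosphate phosphatase, was above control by more than 1.5-fold in all lines, at a mean of 0.82 ± 0.18 (SD, n = 3 lines, edgeR adjusted p = 0.0999).

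The epithelial list had 6 of 9 genes higher and 2 lower in A549 than in H1299. The list for other cell types had 3 of 6 higher and 2 lower, beside 22.8% and 24.4% of all genes. KRT19 was at 550 and 399 TPM in H460 and at most 2.23 elsewhere, and ESRP1 was at most 0.335 TPM. Among the second list, COL3A1 was at 15.5 and 12.9 TPM in H460, 10.2 and 8.56 in A549 and 0 and 0.0769 in H1299. DCN was at most 0.0731 TPM. COL1A1 was at most 2.03 TPM and EPCAM at most 8.04 TPM, and both were more than 1.5-fold above control in all 3 lines (edgeR paired adjusted p = 0.169 and 0.152). In A549, 3 of the 7 epithelial genes with reads in every library were lower by 1.5-fold and 2 were higher. The 3 lower genes were the keratin genes KRT18, KRT8 and KRT7. They went from 2918 to 1235, from 1778 to 793 and from 781 to 376 TPM, the same direction as ALDH1A1 and ALDH3A1 in A549. The 2 higher genes were KRT19, also a keratin gene, from 0.888 to 2.23 TPM, and EPCAM, from 3.61 to 8.04 TPM. A part of any of these genes in the ALDH1A1 and ALDH3A1 changes was not tested.

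For the members with a range of at least 3 over the lines, the genes most alike were found by the root mean square distance of centred log2 CPM over 6 libraries, among 15902 genes with at least 50 reads on average. The nearest to ALDH1A1 were FGG (0.88), a fibrinogen chain gene, TM4SF20 (0.89) and AKR1B15 (0.98). Nearest to ALDH3A1 was S100A6 (0.38), at 1870 and 1948 TPM in H460, 1869 and 1634 in A549 and 0 and 0.851 in H1299, with SIK1B (1.28) and AKR1B10 (1.34) next. ALDH1A3 was closest to GALM and P2RY2 (0.13 and 0.14) and then LOC107986838 (0.18). ALDH2 was closest to C2orf72 (0.19), SFMBT2 (0.26) and RIMS4 (0.28). ALDH1L2 was closest to GALNT13 (0.14), PAX9 and DTWD1 (both 0.22), and ALDH1L1 to ADAMTS9 (0.37), LINC02732 (0.39) and MALL (0.43). The libraries of a line share their cells, so these distances rest mainly on 3 line levels.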

How the data were processed

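Total RNA of 6 cultures, depleted of rRNA, was made into stranded libraries and sequenced as paired-end reads. Per the labels, the authors used bcl2fastq 2.20.0, Trimmomatic, HISAT2 2.1.0 and StringTie 1.3.4b. The study's methods name another StringTie version, and the notes name both hg19 and GRCh38. The deposited annotation and table are of GRCh38. The authors deposited read counts per gene and TPM, which are scaled by transcript length and library. The table also held 18 columns of samples outside this series, which were not used.

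Counts were tested as deposited in edgeR 4.0.16 (R 4.3.3) with TMM scaling and filterByExpr, in 1 model with cell line and treatment terms and 2 residual degrees of freedom. DESeq2 1.42.0 was an alternative. Standard errors are the log2 fold change over the square root of F. The scripts were tested on simulated counts. Control and si-MALAT1 libraries were paired because they come from the same cell line, and their deviations from the group means correlated at 0.887, 0.923 and 0.879 in H460, H1299 and A549. Within lines no test was possible, and a threshold of 1.5-fold was used. Named genes were all members, the other aldehyde dehydrogenases, overlapping genes, MALAT1, up to 3 called genes per list with the largest line difference, any list gene past 1.5-fold the same way in 3 lines, and the 3 nearest genes of each variable member. CD24, CA12, MLPH, KRT7, KRT8, KRT18, CD68, ACTA2, CD3E, PTPRC, CDH5 and ALDH7A1P1 were named after their values were seen. The members and lists were chosen with earlier results of these data known. Alternatives changed the scaling, filter, pseudocount, unit, tool, covariates and libraries.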

Additional observations from a re-analysis of the deposited data

Results flagged for a closer look

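With 1 culture per line and condition, differences in response between lines were not tested. The values below are differences between the log2 fold changes of 2 lines whose counting intervals lay on opposite sides of 0. ALDH1A1 differed by −2.94 for H460 minus H1299 and by 3.29 for H1299 minus A549. ALDH3A1 differed by −4.10 and 4.41 in the same comparisons, and these rest on 0 and 18 reads in H1299 and on the pseudocount of 1. ALDH1B1 differed by 1.02 for H460 minus H1299 and by −0.78 for H1299 minus A549. ALDH1L2 differed by −0.78 for H1299 minus A549.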

How the results depend on the processing

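The count of members called between lines was 7 or 8 for A549 minus H1299, 8 to 10 for H460 minus H1299 and 5 to 8 for A549 minus H460 over all alternatives run, and the paired test called 0 members in every one. Within lines, the count past the threshold was 0 in H460 and 2 in H1299 on the log2(TPM + 1) scale, against 1 and 3. At a log2 threshold of 1.5 it was 0 in H460 and 1 in H1299. Without the filter on zeros it was 4 in H1299 and 1 in A549. Without the replicate block, paired log2 fold changes of uncalled members turned to −0.40 (ALDH1A1), −0.014 (ALDH1A3), 0.0090 (ALDH1B1) and −0.24 (ALDH3A1), and no call changed. With all genes of at least 1 read they turned to −0.0071 for ALDH3A1 and −0.013 for ALDH7A1, and with a filter by treatment group, added after seeing the data, to −0.0019 for ALDH7A1. Leaving out 1 line at a time gave ranges of −0.23 to 0.89 (ALDH1A1), −0.064 to 0.37 (ALDH1A3), −0.32 to 0.19 (ALDH1B1), −0.025 to 1.14 (ALDH1L1), −0.12 to 0.24 (ALDH1L2), −0.031 to 0.12 (ALDH2), −0.21 to 0.48 (ALDH3A1) and −0.050 to 0.053 (ALDH7A1). Between lines, leaving out 1 library turned the sign of uncalled differences. A549 minus H1299 ran over −0.63 to 0.066 (ALDH1L2) and −0.16 to 0.27 (ALDH4A1), and A549 minus H460 ran over −0.092 to 0.73 (ALDH3A1) and −0.11 to 0.044 (ALDH7A1). The ALDH7A1 call in A549 minus H1299 was also lost with all genes of at least 1 read (edgeR adjusted p = 0.0691) and without the treatment covariate (0.0620), and that of ALDH1L1 in A549 minus H460 with all genes of at least 1 read (0.0584). The cause of these changes was not tested. Low read numbers limit ALDH1L1 in all lines and ALDH1A1 and ALDH3A1 in H1299.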
